A study of Mus musculus with 36 samples.

Results

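The transcriptional response of cultured mouse microglia to tumor necrosis factor (TNF) combined with the TAK1 kinase inhibitor 5z-7 was examined after 4 h. The combination is shortened to T/5z. It consists of 4 microglial libraries treated with TNF/5z-7 set against 4 treated with the vehicle DMSO, 8 of the 36 libraries of the series. Each T/5z library was compared with the DMSO library of the same replicate number. A gene entered the test if 4 or more of the 24 microglial libraries had a log2 value of 1 or higher, which kept 10524 of 15385 genes. All cells came from C57BL/6 mice 2 to 4 days old whose brains were pooled, cultured as mixed glia for 12 days and then selected for the surface protein CD11b. The labels state the sex of no animal. The study asked which transcriptional changes follow activation of the kinase RIPK1 in glia, and it used T/5z as a stimulus for RIPK1-dependent apoptosis. Further microglial groups of 4 libraries each received T/5z with Nec-1s, an inhibitor of RIPK1 kinase activity (T/5z/N), or TNF with a Smac mimetic and the pan-caspase inhibitor zVAD, a stimulus for necroptosis (T/S/Z). Both are used here only where a T/5z level was compared with them. No group received TNF alone or 5z-7 alone, so the contributions of TNF and of TAK1 inhibition to any difference described here cannot be told apart.

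Microglia are the resident macrophages of the brain. When TNF binds its receptor TNFR1, the kinase TAK1 normally passes the signal on to the IKK complex, which frees the transcription factor NF-kB from its inhibitors, and to the MAP kinases p38 and JNK, which act on AP-1 factors and immediate early genes. TAK1 and its downstream kinases also restrain RIPK1, and when TAK1 is blocked RIPK1 can recruit FADD and caspase-8 and start apoptosis.

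The unit throughout is the deposited log2 value, log2 of FPKM (fragments per kilobase of exon, scaled to library size) plus 1, and differences are T/5z minus DMSO on that scale. On that scale the change of a weakly expressed gene comes out too small. Csf1r, which encodes the receptor for the survival factor CSF1 and is expressed by macrophages in general, had a mean of 9.86 in DMSO and 9.96 in T/5z. Genes more restricted to microglia were low, with P2ry12 at 2.39 and Tmem119 at 3.32 in DMSO, and Ms4a7, a border macrophage marker, was at 9.68 in DMSO and 9.35 in T/5z. The labelled cell type thus rests on myeloid genes and not on the microglia-restricted ones. Of the 11 microglial markers, Siglech had no value that passed the filter. Total counts were not in the table. From the steps between low values, the DMSO and T/5z libraries of replicate 4 were estimated to hold 20.9M and 23.3M reads. The depth of the other 3 replicates is unknown, because their values had been adjusted so that each gene had the same mean in every replicate. That adjustment leaves the difference within a pair as it was, but it makes the values of a replicate mirror each other between groups and removes spread within a group. Pearson's r over genes was 0.993 to 0.996 between DMSO libraries, 0.993 to 0.996 between T/5z libraries and 0.916 to 0.935 between the groups.

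A gene was called when its limma Benjamini-Hochberg adjusted p was under 0.05 and its fold change exceeded 1.5. By this rule 2563 of 10524 genes (24.4%) were called, 1167 higher (11.1%) and 1396 lower (13.3%) with T/5z. Which direction had more calls depended on the setting. With libraries centred on their median, 1360 were higher and 1177 lower, at a fold minimum of 2 there were 546 and 531, with 5 in place of 1 added before the log 769 and 715, and over genes whose mean log2 level reached 3 there were 763 and 696. The largest changes were rises. Among called genes, 177 rose by more than 2 on the log2 scale and 84 fell by more than 2. Past 4, there were 23 rises and no falls. On this scale a gene cannot fall by much more than its DMSO level, so falls past 4 were open only to genes above that level. The median change was 0.96 among the higher genes, -0.88 among the lower and -0.058 over all genes tested. Without replicate 4, the only replicate left unadjusted, 2514 genes were called. In 1159 of the higher and 1393 of the lower genes, all 4 pairs moved the same way. The 4 values of each group did not overlap for 63.5% of all genes tested, so separation of the groups alone says little about a gene here.

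The level in DMSO went with the direction of the calls. Of the 490 genes with a DMSO mean below 1, 183 (37.3%) were called higher and 4 lower. Between DMSO means of 3 and 4, 8.76% were called higher and 14.3% lower, and above 8, where 269 genes lay, 6.69% were higher and 5.2% lower. Genes that DMSO microglia transcribed little included 18 that went from a mean below 1 to a mean of at least 3. In the reverse direction 7 genes went from at least 3 to below 1. The filter admits a gene that is low in DMSO only if it is higher in other groups, so the high share in the lowest class is in part fixed by the filter.

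**Figure D1:**
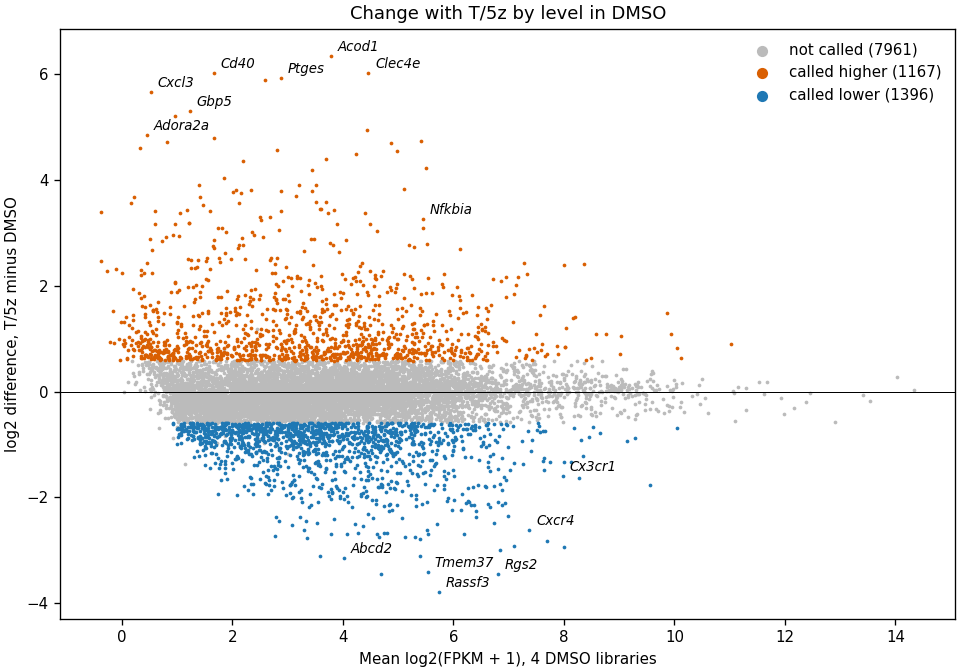
Each point is 1 of the 10524 genes tested. The horizontal axis is the mean log2 value in the 4 DMSO libraries and the vertical axis the log2 difference of T/5z minus DMSO. Orange points were called higher (1167) and blue points lower (1396), and the named genes include the largest rise and the deepest fall, 6.34 for Acod1 and -3.78 for Rassf3.

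Genes of the NF-kB system were mostly higher with T/5z. Of 23 subunits, inhibitors and feedback genes, 17 were called higher, 0 lower and 6 were not called, with a median difference of 1.84. The share called was 73.9%, against 24.4% over all genes. Nfkbia encodes IkappaB-alpha, the inhibitor that NF-kB induces against itself. It had log2 values of 5.29, 5.47, 5.62 and 5.41 in the 4 DMSO libraries and 8.74, 8.78, 8.66 and 8.68 in the 4 T/5z libraries. The groups lay far apart, with a difference of 3.27 (SE 0.070, limma adjusted p 3.7e-07) in 4 of 4 pairs. Tnfaip3, which encodes the ubiquitin-editing feedback enzyme A20, was at 2.79, 2.91, 2.99 and 2.85 in DMSO and 6.56, 6.43, 6.08 and 6.10 in T/5z. Every T/5z library exceeded every DMSO library for Tnfaip3, by 3.41 on average (SE 0.11, adjusted p 9.44e-07). Traf1, an adaptor of TNF receptors, rose from a mean of 1.66 to 6.45 (difference 4.79, SE 0.073), Tnfaip2 by 4.22 (SE 0.056) and Nfkbie, which encodes IkappaB-epsilon, by 3.44 (SE 0.10). The 6 genes not called included the deubiquitinase gene Cyld, which had a difference of 0.51 (SE 0.069), and Tnip2, with 0.34 (SE 0.088).

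To show what the induced NF-kB genes carry upstream, RefSeq promoters were searched on both strands for the kappaB consensus, the 10-base site that NF-kB dimers bind. Of the 8306 tested genes with a promoter window (78.9% of 10524, 300 bases from 250 before to 50 after the start), 867 (10.4%) held a match. With so many of the tested genes lacking a window, called and other genes were not compared. Of the genes searched individually (the largest rises and falls and the pathway genes that are always named), 17 called higher had a window, of which 5 held a match and 12, among them Acod1, Clec4e, Ptges, Traf1, Tnf and Cflar, did not. Of 13 called lower, 3 held one, Susd3, Fos and P2ry12. The 5 promoters of the higher genes with a match are given as the 150 bases before the RefSeq start on the gene's own strand, 5' to 3', with the matched bases in capitals. The first is Cxcl3 at chr5:90785951-90786100 (plus strand), whose 11 capitals are 2 overlapping matches that begin 73 and 72 bases before the start. Gbp5 lies at chr3:142496784-142496933 (plus) with a match beginning 77 bases before the start, and Tnfaip3 at chr10:19015411-19015560 (minus) with matches beginning 125 and 12 bases before it. Nfkbia lies at chr12:55492648-55492797 (minus) with a match 29 bases before the start, and Il6 at chr5:30012964-30013113 (plus) with a match 44 bases before it. All coordinates are of GRCm38.p6. A match is a description of letters and no evidence of binding in these cells.
Cxcl3: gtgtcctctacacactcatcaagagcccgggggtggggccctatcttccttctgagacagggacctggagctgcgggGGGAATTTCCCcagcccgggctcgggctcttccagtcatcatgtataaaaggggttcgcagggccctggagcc
Gbp5: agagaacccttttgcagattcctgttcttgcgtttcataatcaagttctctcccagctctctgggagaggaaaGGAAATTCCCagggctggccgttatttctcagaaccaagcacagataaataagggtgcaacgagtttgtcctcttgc
Tnfaip3: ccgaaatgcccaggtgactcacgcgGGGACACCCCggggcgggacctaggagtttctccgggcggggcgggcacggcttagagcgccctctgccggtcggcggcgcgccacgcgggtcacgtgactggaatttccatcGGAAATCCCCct
Nfkbia: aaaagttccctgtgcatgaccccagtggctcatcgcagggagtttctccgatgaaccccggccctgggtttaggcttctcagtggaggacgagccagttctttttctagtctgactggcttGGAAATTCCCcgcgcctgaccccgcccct
Il6: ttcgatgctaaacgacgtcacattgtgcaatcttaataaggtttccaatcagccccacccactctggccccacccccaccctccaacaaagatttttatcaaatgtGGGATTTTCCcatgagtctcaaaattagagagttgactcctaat

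Chemokines, the secreted proteins that attract leukocytes, made up one of the most responsive groups. Of 22 tested, 16 were called higher, 2 lower and 4 were not called, 81.8% called against 24.4% over all genes. Their median was 2.26. Cxcl3, a ligand of the neutrophil receptor CXCR2, was at 0.19, 0.41, 1.00 and 0.51 in DMSO and 6.39, 6.31, 6.05 and 6.02 in T/5z. It was close to the filter without stimulation and clearly present in all 4 T/5z libraries, a difference of 5.66 (SE 0.17, adjusted p 7.58e-07). Ccl22, a ligand of the T cell receptor CCR4, went from 1.12, 1.48, 0.93 and 0.31 to 6.09, 6.04, 6.08 and 6.47. The groups did not overlap and the difference was 5.21 (SE 0.23, adjusted p 3.32e-06). Ccl2, which attracts monocytes through CCR2, was at 0.25, 0.79, 1.11 and 1.16 in DMSO and 5.94, 6.18, 5.38 and 4.67 in T/5z, and Cxcl1, which attracts neutrophils, at -0.04, 0.39, 0.68 and 0.32 and 5.38, 5.53, 4.81 and 4.05. For both genes replicate 4 gave the lowest T/5z value, and the differences were 4.72 (SE 0.33) and 4.61 (SE 0.27). The chemokines that did not pass were already abundant or little moved. Ccl5 had 9.60 in DMSO and 9.99 in T/5z, and its difference of 0.39 (SE 0.087, adjusted p 0.00639) was under the fold minimum. Ccl6 had a difference of -0.19 (SE 0.097). The 2 called lower, named because they were only 2, were Ccl8 (-0.97, SE 0.12) and Cxcl14 (-0.87, SE 0.094).

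Against the other stimulus, T/S/Z, chemokines divided. Over all genes, 1035 of 10524 (9.83%) were called between T/5z and T/S/Z. Of the 22 chemokines, 3 were higher with T/5z and 6 lower. Ccl22 was 2.21 higher (SE 0.066, adjusted p 3.63e-06), whereas Cxcl3 fell short of its T/S/Z level by 0.78 (SE 0.070, adjusted p 0.00019). Of the others higher with T/5z, Cx3cl1 differed by 1.86 and Ccl20 by 1.08. These 2 are named because only 3 were higher, and Ccl20 lost its call without replicate 1, 2 or 3 (differences of 1.01, 0.74 and 1.09). With Nec-1s present, 754 of 10524 genes (7.16%) were called between T/5z and T/5z/N, and of the 22 chemokines 13 were higher without it and 1 lower. Cxcl3 was 3.07 higher in T/5z than in T/5z/N (SE 0.087) and Ccl22 1.49 (SE 0.047). In the same comparison 4 of 6 tested astrocyte markers were higher in T/5z, Aqp4 by 1.09 (SE 0.096), Gja1 by 0.84, Gfap by 0.84 and Slc1a3 by 0.72, and 2 of 4 tested fibroblast and mural markers. Aqp4, Gja1 and Slc1a3 were below 1 in every DMSO library and passed the filter through other groups, which in part fixes the astrocyte count. These 4 astrocyte calls were lost with 5 in place of 1 added before the log. Their part in the differences between T/5z and T/5z/N was not tested.

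Of 24 cytokines and growth factors, 16 were called higher and 2 lower, 75% called against 24.4% over all genes. Their median was 1.12. Tnf itself was at 2.69, 2.80, 3.21 and 2.70 in DMSO and 6.12, 6.25, 5.51 and 5.74 in T/5z. All T/5z values were higher, by 3.06 (SE 0.18, adjusted p 1.16e-05). Il6 was below the filter in all DMSO libraries (-0.88, -0.60, -0.12 and 0.10) and between 1.47 and 2.61 in T/5z. The DMSO values below 0 are products of the replicate adjustment, and the difference of 2.47 (SE 0.34, adjusted p 0.00067) rests on low levels. Il1b, which encodes interleukin-1 beta, was at 4.67, 4.76, 5.79 and 5.35 and 7.07, 6.82, 6.36 and 6.37. Its replicates 3 and 4 were higher in DMSO than replicates 1 and 2, and the difference of 1.51 (SE 0.29, adjusted p 0.00297) was in 4 of 4 pairs. Tnfsf9, the ligand of 4-1BB, rose by 3.38 (SE 0.11) and Csf1, the microglial growth factor, by 2.53 (SE 0.066). The 2 that fell, named for being 2, were Vegfa (-1.38, SE 0.12) and Osm, oncostatin M (-0.88, SE 0.086). Igf1 and Tgfb1, both highly expressed, had differences of 0.21 (SE 0.060) and 0.12 (SE 0.048). For 14 of the 24 cytokines the T/5z level was below the T/S/Z level and for 3 above it, where 9.83% of all genes were called in either direction. Tnf was lower by 3.50 (SE 0.086, adjusted p 1.74e-06) and Il1b by 1.78 (SE 0.18), whereas Csf1 was 0.74 higher (SE 0.21), a call lost without replicate 1, 2 or 3 (0.66, 0.51 and 0.80).

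**Figure D2:**
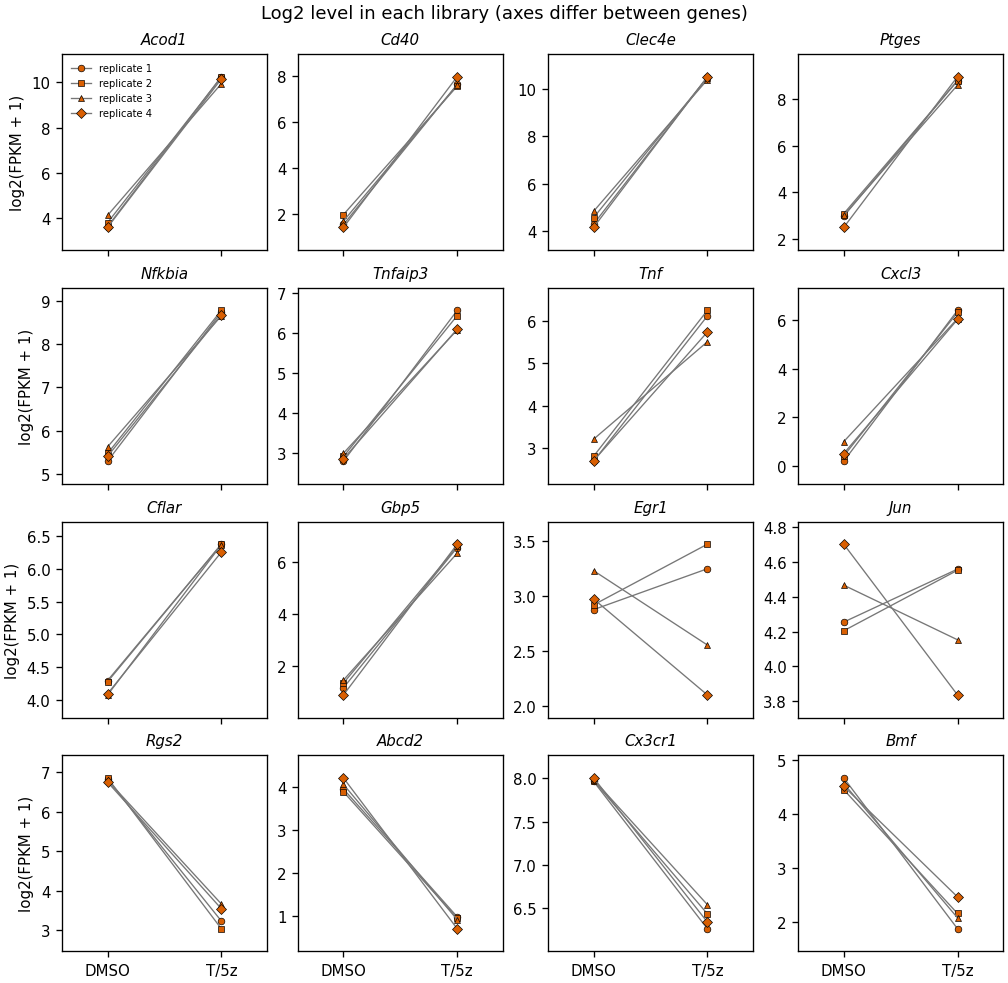
Log2 values (log2 of FPKM plus 1) in each of the 4 DMSO and 4 T/5z libraries for 16 genes, with lines joining libraries of the same replicate number. Every line of Acod1, Cd40, Nfkbia, Tnf and the other genes of the upper rows rises and every line of Rgs2, Abcd2, Cx3cr1 and Bmf falls, whereas the lines of Egr1 and Jun cross.

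Immediate early genes and feedback genes of the MAP kinases moved in both directions. Of 33 tested, 12 were called higher, 5 lower and 16 not called, 51.5% called against 24.4% over all genes. The median was 0.22, or -0.14 over those members whose mean log2 level reached 3. Egr1, an early growth response transcription factor, was at 2.88, 2.92, 3.23 and 2.97 in DMSO and 3.25, 3.47, 2.55 and 2.10 in T/5z. The groups overlapped, 2 pairs went up and 2 down, and the difference of -0.16 (SE 0.24, adjusted p 0.599) did not pass. Jun, the AP-1 subunit, was at 4.25, 4.20, 4.47 and 4.70 and 4.56, 4.55, 4.15 and 3.84. It also overlapped, with -0.13 (SE 0.19, adjusted p 0.577). Dusp1, a phosphatase that switches off p38 and JNK, was at 5.31, 5.44, 5.32 and 5.35 and 5.10, 5.15, 5.30 and 4.99. Its T/5z values lay just below the DMSO values, and the difference of -0.22 (SE 0.064, adjusted p 0.0212) was under the fold minimum. Atf3 and Klf6, both abundant early transcription factors, had -0.19 (SE 0.075) and -0.17 (SE 0.055). Fos fell, from 6.37, 6.53, 6.55 and 6.44 to 5.61, 5.78, 5.91 and 5.95, a difference of -0.66 (SE 0.057, adjusted p 6.71e-05). The other 4 that fell, named because they were few, were Fosl2 (-1.41), Dusp6 (-1.41), Nr4a1 (-1.09) and Nr4a2 (-0.93).

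The members that rose were led by Dusp2, a nuclear MAP kinase phosphatase, which went from 1.62, 1.69, 1.35 and 0.98 to 4.82, 4.84, 5.20 and 5.49 (difference 3.67, SE 0.22, adjusted p 1.12e-05). Its groups were widely separated. Maff, a small Maf transcription factor, rose by 2.72 (SE 0.22), Spred1, an inhibitor of Ras signalling, by 2.09 (SE 0.087), and Ier3 by 1.74 (SE 0.12). Compared with T/S/Z, of the 33 early genes 22 were lower in T/5z than in T/S/Z and 1 was higher, against 5 lower and 3 higher of the 23 NF-kB genes and 9.83% called in either direction over all genes. Dusp1 had a mean of 5.14 in T/5z and 8.61 in T/S/Z, lower by 3.47 (SE 0.17, adjusted p 1.93e-05). Egr1 was lower by 2.77 (SE 0.49) and Atf3 by 2.62 (SE 0.14). The 1 gene higher was Dusp2, with 1.76 (SE 0.088). T/S/Z contains no TAK1 inhibitor and differs from T/5z also in its Smac mimetic and zVAD, so the agent behind these differences cannot be told apart. Compared with T/5z/N, 18 of the 33 were higher in T/5z and 0 lower, where 7.16% of all genes were called in either direction, Egr1 by 0.77 (SE 0.15, adjusted p 0.0038) among them. Without replicate 2 the difference for Egr1 was 0.57 and no longer called.

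**Figure D3:**
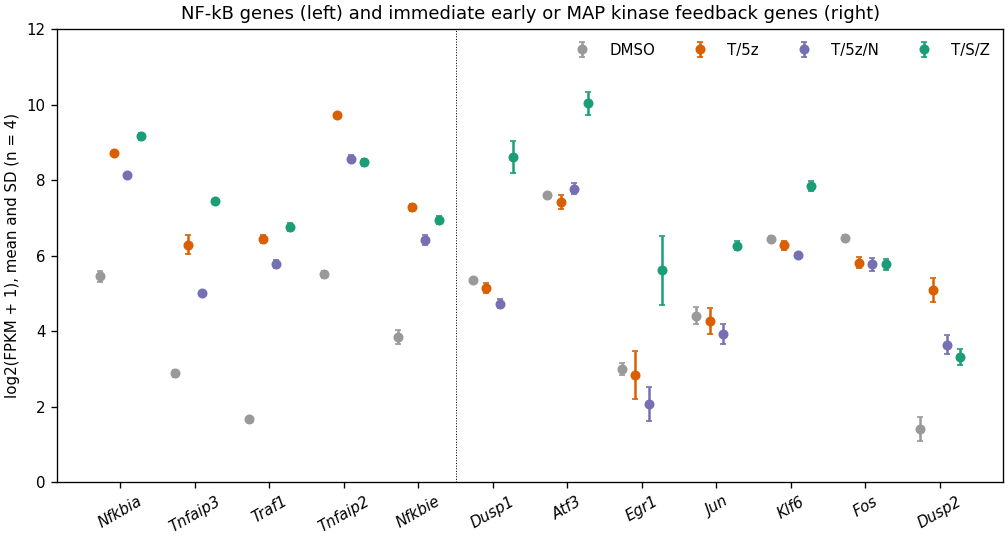
Mean log2 value with its SD (4 libraries each) of the NF-kB genes and the immediate early genes named in the text, in DMSO, T/5z, T/5z/N and T/S/Z. The 5 NF-kB genes on the left stand above DMSO in T/5z and T/S/Z, whereas Dusp1, Atf3, Egr1, Jun and Klf6 on the right stand near DMSO in T/5z and above it in T/S/Z.

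The largest rises of the comparison came from several functional groups at once. Acod1, which makes the antimicrobial metabolite itaconate, went from 3.63, 3.81, 4.13 and 3.60 to 10.25, 10.22, 9.93 and 10.15. That is a fold change of 81.3 (6.34, SE 0.13, adjusted p 3.7e-07), with groups far apart. Cd40, a costimulatory receptor of antigen-presenting cells, went from 1.56, 1.99, 1.71 and 1.43 to 7.64, 7.56, 7.63 and 7.98, and Clec4e, the lectin Mincle that senses dead cells and mycobacteria, from 4.29, 4.57, 4.83 and 4.15 to 10.50, 10.49, 10.40 and 10.53. Both groups were far apart for either gene, with changes of 65.3-fold (SE 0.14 on the log2 scale) and 64.8-fold (SE 0.12). Ptges, the inducible prostaglandin E synthase, was at 2.97, 3.07, 3.01 and 2.48 and 8.81, 8.81, 8.62 and 8.98, a difference of 5.92 (SE 0.14). Adora2a, an adenosine receptor gene, was near 0 in DMSO (0.57, 0.72, 0.30 and 0.24) and reached 5.22, 5.27, 5.32 and 5.45 in T/5z. Its fold on this scale was 29. Marcksl1, which encodes a membrane-bound actin regulator, started higher, at 5.41, and rose by 4.74 (SE 0.12). Gbp5, Ifi205 and Bcl2a1a, described with their families, complete the 12 largest rises together with Cxcl3, Ccl22 and Traf1.

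Of 18 costimulatory and adhesion molecules, 10 were called higher and 2 lower, 66.7% called against 24.4% over all genes. Their median was 1.27. Besides Cd40, Icam1, the leukocyte adhesion ligand, rose by 4.70 (SE 0.088), Cd69, an early activation antigen, by 4.04 (SE 0.084) and Icosl, a ligand for T cell costimulation, by 3.79 (SE 0.058). The integrin genes Itgb2 and Itgam, which encode the chains of CD11b/CD18, had differences of -0.14 (SE 0.048) and -0.052 (SE 0.047) and were not called. Cells had been selected on CD11b, so its level is no finding. The 2 that fell were Cd200r1, the receptor for the neuronal inhibitory ligand CD200 (-2.50, SE 0.072), and Selplg (-0.91, SE 0.064), both named for being 2.

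Pattern recognition receptors split by family member. Of 27 tested, 13 were higher and 4 lower, 63% called against 24.4% over all genes. Nlrp3, the inflammasome sensor, was at 3.35, 3.55, 3.45 and 3.43 in DMSO and 7.73, 7.65, 7.56 and 7.59 in T/5z. The difference was 4.19 (SE 0.059, adjusted p 1.72e-07) with no overlap. Clec5a, a lectin receptor, rose by 3.58 (SE 0.11) and Ptx3, a soluble pattern recognition protein, by 3.68 (SE 0.22) from a DMSO mean of 0.22. The 4 that fell were all toll-like receptors, and they are named because they were 4. Tlr8 had -2.07 (SE 0.089), Tlr9 -2.04 (SE 0.073), Tlr4 -1.77 (SE 0.14) and Tlr13 -0.91 (SE 0.075). The toll-like receptors that sense lipoproteins went the other way, with Tlr1 at 3.45 (SE 0.11), Tlr2 at 2.08 (SE 0.058) and Tlr6 at 1.57 (SE 0.11). These 3 were chosen after their values were seen. The lectin genes Clec4d and Clec7a, at 8.69 and 7.97 in DMSO, had differences of 0.58 (SE 0.044) and -0.29 (SE 0.051).

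Enzymes of prostaglandin metabolism moved in opposing directions, 3 of 12 higher and 3 lower, 50% called against 24.4% over all genes. Ptges rose, as above. Ptgs2, cyclooxygenase-2, was at 2.83, 3.03, 2.40 and 2.25 in DMSO and 4.34, 4.40, 4.22 and 3.77 in T/5z, higher in all 4 pairs by 1.55 (SE 0.080, adjusted p 6.15e-06), and it stayed 2.49 below T/S/Z (SE 0.45). Hpgd, the enzyme that inactivates prostaglandins, was at 6.98, 6.98, 7.10 and 7.31 and 4.21, 4.25, 4.33 and 3.91. All of its T/5z values lay below the DMSO values, a fall by 2.92 (SE 0.11, adjusted p 1.99e-06). Hpgds, which makes prostaglandin D2, fell by 1.12 (SE 0.080). Pla2g4a (1.10), which releases arachidonic acid, and Ptgs1 (-0.93), the constitutive cyclooxygenase, complete the 6 called. Alox5ap and Ptges3 had -0.57 and 0.58 and were just short of the fold minimum.

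Of 11 metabolic enzymes tied to inflammation, 8 were called higher and 1 lower, 81.8% called against 24.4% over all genes. After Acod1 came Ch25h, which makes 25-hydroxycholesterol (4.36, SE 0.091), Sod2, the mitochondrial superoxide dismutase (3.38, SE 0.088), and Gch1, the first enzyme of tetrahydrobiopterin synthesis (2.53, SE 0.094). The 1 that fell was Sat1, the polyamine acetyltransferase (-1.21, SE 0.091). Ass1 was not called, with 0.14 (SE 0.069).

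The transcripts of the TNF receptor complex and the death machinery changed in fewer cases. Of 30, 6 were higher, 3 lower and 21 not called, and 30% called lies near the 24.4% over all genes. Ripk1 was at 5.25, 5.21, 5.14 and 5.21 in DMSO and 4.85, 4.81, 4.83 and 4.87 in T/5z. Every T/5z value was lower, but the size, -0.36 (SE 0.045), stayed under the fold minimum. Map3k7, the gene of TAK1, had 0.33 (SE 0.058), Casp8 -0.40 (SE 0.051), Tnfrsf1a, the gene of TNFR1, -0.19 (SE 0.045), Zbp1 0.27 (SE 0.065), Ripk3 -0.048 (SE 0.093) and Mlkl -0.18 (SE 0.080), and none of these 6 was called. Cflar, which encodes the caspase-8 inhibitor c-FLIP, was at 4.30, 4.28, 4.08 and 4.09 and 6.37, 6.37, 6.36 and 6.25. It rose by 2.15 (SE 0.053, adjusted p 4.75e-07), with groups far apart, and was 1.02 higher than in T/5z/N (SE 0.053). Casp4, whose product caspase-11 detects lipopolysaccharide in the cytosol, rose by 2.18 (SE 0.062) and Mapkapk2, the gene of the p38 effector kinase MK2, by 1.84 (SE 0.055). Those that fell, named because they were few, included Tab1, a TAK1-binding protein (-0.68, SE 0.072), and Map3k8, the kinase TPL2 (-0.63, SE 0.16), which was not called without replicate 4 (-0.44).

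In the BCL-2 family, which sets the mitochondrial threshold for apoptosis, 6 of 16 were higher and 2 lower, 50% called against 24.4% over all genes. The higher genes included the anti-apoptotic A1 copies Bcl2a1a (2.41, 2.70, 3.13 and 2.14 in DMSO and 8.38, 8.56, 8.37 and 8.59 in T/5z), Bcl2a1d (difference 4.55) and Bcl2a1b (difference 2.42). Their sequences are nearly identical, so how reads were divided among them is uncertain. The 2 that fell were the pro-apoptotic genes Bmf and Bbc3. Bmf was at 4.67, 4.45, 4.56 and 4.51 in DMSO and 1.88, 2.16, 2.08 and 2.47 in T/5z. No values overlapped, with a fall by 2.40 (SE 0.11, adjusted p 4.51e-06), and Bmf was 1.25 above its level in T/S/Z (SE 0.16) and lower than in T/5z/N by 1.63 (SE 0.080). Bbc3, which encodes PUMA and is named because only 2 fell, had -0.84 (SE 0.068). The effector genes Bax and Bak1 had 0.30 (SE 0.047) and 0.18 (SE 0.054) and were not called.

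**Figure D4:**
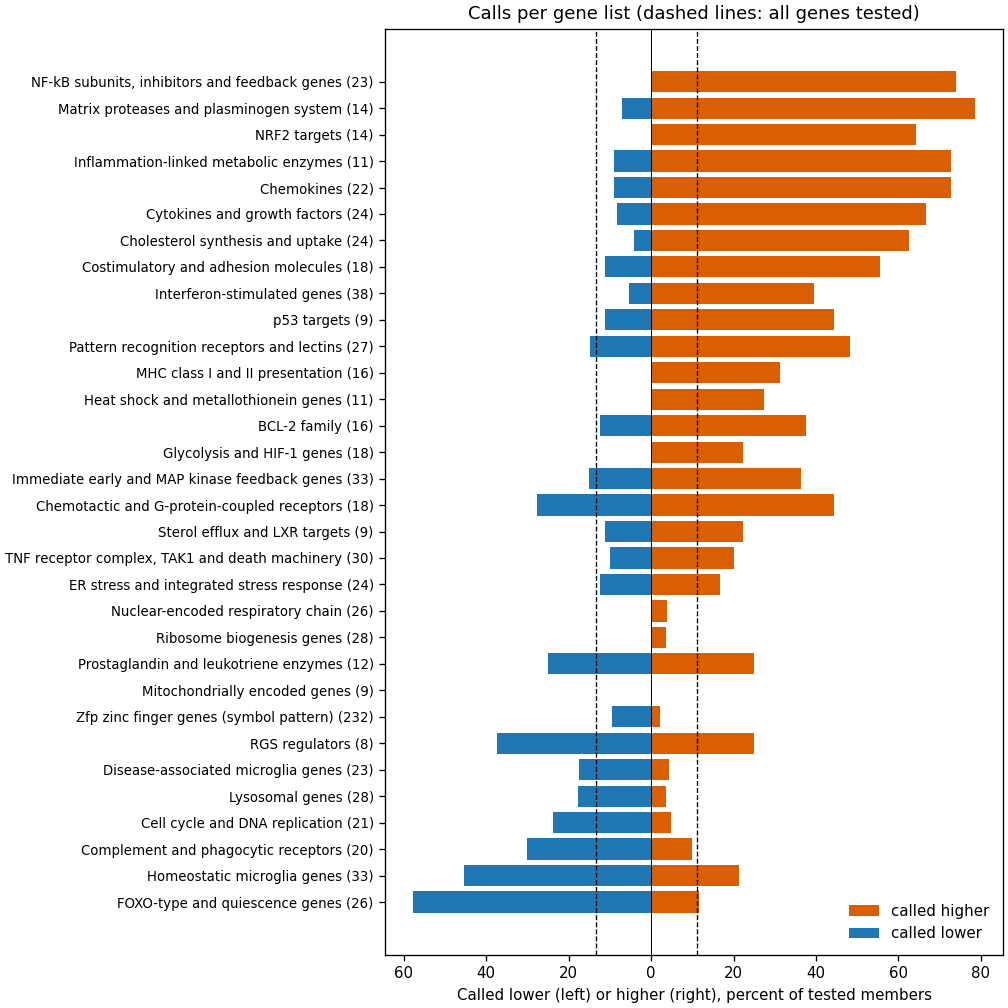
Share of the tested members of each gene list, with the cell type marker lists left out, that was called higher (right) or lower (left) with T/5z, in percent, with the number tested beside each name. Dashed lines mark 11.1% higher and 13.3% lower, the shares over all 10524 genes. Among the lists drawn, matrix protease, NF-kB, chemokine and metabolic enzyme genes extend furthest to the right, and FOXO-type and homeostatic microglia genes furthest to the left. The lists were written with earlier results of these data known.

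Genes of resting microglia fell more often than they rose. Of 33 homeostatic genes, 15 were lower and 7 higher, 66.7% called against 24.4% over all genes, with a median of -0.46. Cx3cr1, the receptor for neuronal fractalkine, was at 7.96, 7.97, 7.98 and 8.00 in DMSO and 6.26, 6.44, 6.54 and 6.34 in T/5z. The groups did not overlap, with a fall by 1.59 (SE 0.056, adjusted p 1.28e-06). P2ry12, the purinergic receptor that guides microglial processes, was low in these cultures already, at 2.22, 2.36, 2.62 and 2.36, and was at 1.71, 1.61, 1.96 and 1.84 with T/5z (-0.61, SE 0.073), a call lost without replicate 2 (-0.56). Mertk, a receptor for apoptotic cells, fell by 2.38 (SE 0.060) and the transporter gene Slco2b1 by 2.03 (SE 0.095).

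Tmem119, often used to tell microglia from other macrophages, went the opposite way, from 3.44, 3.29, 3.51 and 3.03 in DMSO to 4.69, 4.88, 4.68 and 5.35 in T/5z. Every T/5z value was above every DMSO value (1.58, SE 0.18, adjusted p 0.00025), and the T/5z level was 1.63 above T/S/Z (SE 0.12). P2ry13, chosen after its value was seen, rose by 1.15 (SE 0.14). Csf1r (0.10, SE 0.044) and Trem2 (-0.33, SE 0.056) were not called. In bulk RNA a lower value cannot tell fewer expressing cells from less RNA per cell, and T/5z is a stimulus for cell death. For comparison, 18 of 23 genes of disease-associated microglia were not called, 4 were lower and 1, Csf1, higher, a share of 21.7% called that lies near the 24.4% over all genes. Apoe had 0.037 (SE 0.086) and Lyz2 -0.072 (SE 0.066) at mean log2 levels above 13, whereas Gpnmb, a lysosome-associated glycoprotein, fell by 0.88 (SE 0.082), Ank by 0.92 and Fabp5 by 0.78. The fourth, named for being 1 of 4, was Lgals3 (-0.69).

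Genes linked to FOXO factors, glucocorticoids and quiescence had the highest share of falls among the lists drawn in the plot of calls per list. The members had been chosen with earlier results of these data known, so this rank is no independent finding. Of the 26 genes in the list, 15 were lower, 3 higher and 8 not called, 69.2% called against 24.4% over all genes. The median of -1.0 compares with -0.058 over all genes. Rassf3 was at 5.86, 5.83, 5.65 and 5.65 in DMSO and 1.75, 1.77, 2.23 and 2.10 in T/5z. This was the deepest fall of all genes tested (-3.78, SE 0.13, adjusted p 1.03e-06), and the gene carries the confounded mark of the annotation, which the sources used here do not define. Rgs2, which curbs G-protein signalling, went from 6.82, 6.86, 6.80 and 6.75 to 3.23, 3.03, 3.66 and 3.54, a fall by 3.44 (SE 0.12, adjusted p 1.07e-06) with no overlap. Engase, a deglycosylating enzyme of the cytosol, fell by 3.44 (SE 0.082). Cxcr4, the receptor for CXCL12, was at 7.54, 7.42, 7.23 and 7.31 in DMSO and 4.48, 4.71, 4.94 and 4.88 in T/5z. It fell by 2.62 (SE 0.12) and was 2.03 lower than in T/5z/N (SE 0.082, adjusted p 1.62e-06). Txnip and Bcl6 were not called, with -0.57 (SE 0.052) and 0.22 (SE 0.077). The 3 that rose, named for being 3, were Cited2 (1.97), Arrdc4 (0.94) and Ddit4 (0.78).

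Most of the other deep falls belonged to no list. Tmem37, which encodes a membrane protein, was at 5.43, 5.69, 5.37 and 5.64 in DMSO and 2.22, 1.98, 2.15 and 2.12 in T/5z, and Abcd2, a peroxisomal transporter of very long-chain fatty acids, at 3.95, 3.89, 4.06 and 4.21 and 0.98, 0.95, 0.91 and 0.70. Both lost most of their signal in every pair, -3.42 (SE 0.093) and -3.14 (SE 0.10). Tifab went from 3.58 to 0.47 and Dhrs3, a retinaldehyde reductase, from 7.69 to 4.87. Others encode regulators of small GTPases, the GTPase-activating genes Arhgap19 (-3.10, SE 0.12) and Arhgap25 (-2.76, SE 0.070) and the Rab exchange factor gene Rab3il1 (-2.79, SE 0.077). Susd3 (-2.69), Cytip (-2.69), a cytohesin-binding protein gene, and the long noncoding RNA AU020206 (-2.70) were also among the 12 deepest falls of genes without the confounded mark. For each of the genes in this paragraph the limma adjusted p was 4.5e-06 or lower.

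**Figure D5:**
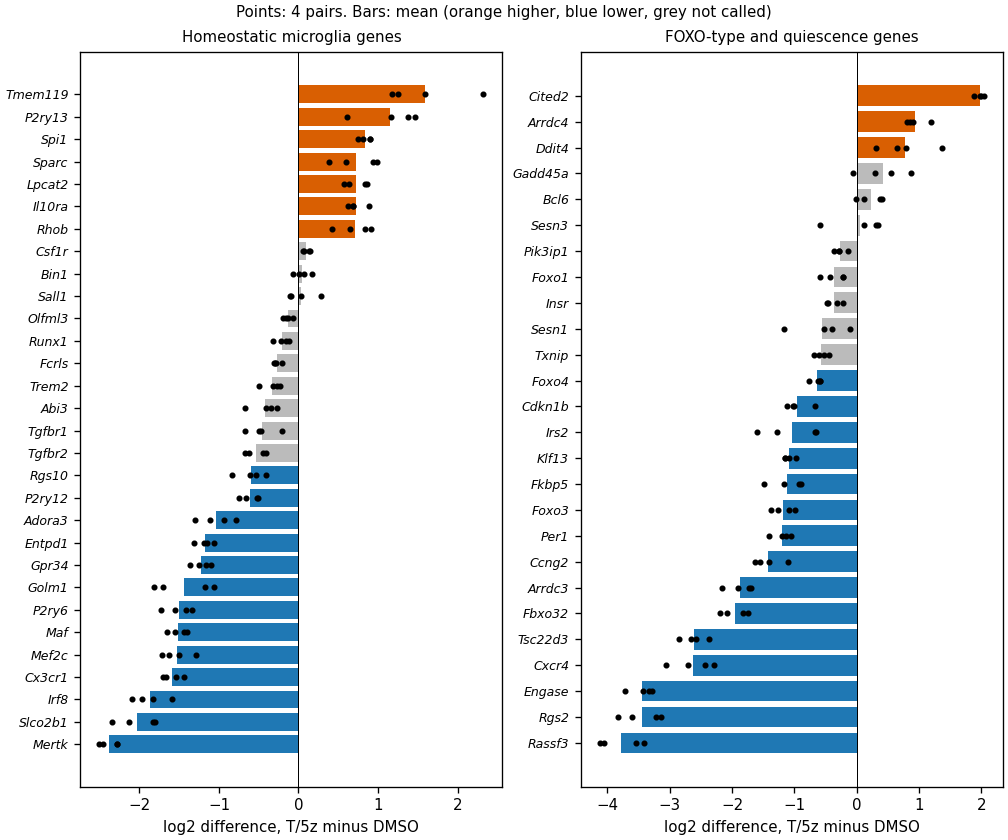
Log2 difference of T/5z minus DMSO in each of the 4 pairs (points) for the homeostatic microglia genes and FOXO-type genes reported here, ordered by their mean (bars). Most points of a gene lie on the same side of 0, Mertk and Rassf3 lie at the lower ends, and Tmem119 and Cited2 at the upper ends.

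Of 38 interferon-stimulated genes, 15 were called higher and 2 lower, 44.7% called against 24.4% over all genes. Their median was 0.24. Gbp5, a GTPase that coats intracellular bacteria, was at 1.18, 1.36, 1.48 and 0.91 in DMSO and 6.55, 6.59, 6.33 and 6.68 in T/5z. With 5.31 (SE 0.13, adjusted p 4.93e-07) it exceeded its level in T/S/Z by 3.42 (SE 0.060, adjusted p 3.77e-07). Irf1, a transcription factor that NF-kB induces, rose by 3.16 (SE 0.10) and Ifit1 by 1.94 (SE 0.13). Ifi205 rose by 4.94 (SE 0.15) but has near-identical relatives, so its reads may be shared. The members most abundant in DMSO among those not called were Ifitm3, at 0.021 (SE 0.051), and Bst2, at -0.14 (SE 0.061). The 2 that fell were Trim25 (-1.12) and Oas3 (-0.84), named for being 2. Of the 38 genes 12 were higher in T/5z than in T/S/Z and 0 were lower, where 9.83% of all genes were called in either direction.

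Of 16 genes of antigen presentation 5 were called, all higher, and 31.2% called lies near the 24.4% over all genes. H2-Ab1 went from 0.89, 0.50, 0.67 and 0.90 to 1.96, 2.19, 1.99 and 1.91, low values in both groups although they did not overlap (1.27, SE 0.13). H2-Eb1 had 0.93, and the peptide transporter genes Tap2 and Tap1 rose by 1.02 (SE 0.062) and 0.68 (SE 0.052). The fifth, named for being 1 of 5, was the immunoproteasome gene Psmb10 (0.62), not called without replicate 4 (0.58). B2m and H2-D1, the abundant class I genes, had -0.027 (SE 0.059) and -0.040 (SE 0.055).

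Of 24 cholesterol synthesis and uptake genes, 15 were called higher and 1 lower, 66.7% called against 24.4% over all genes. Their median was 0.76. Idi1, an isoprenoid isomerase, was at 4.16, 4.21, 4.27 and 3.97 in DMSO and 5.69, 5.59, 5.76 and 5.75 in T/5z. The difference of 1.54 (SE 0.070, adjusted p 3.81e-06) was larger than the spread in either group, and Cyp51 rose by 1.09 (SE 0.068). Dhcr7, the enzyme of the last step, was the 1 that fell (-0.83, SE 0.067). Of these 24 genes 1 was called against T/S/Z, Insig1, with -0.85 (SE 0.066), where 9.83% of all genes were called. Of 9 genes of sterol efflux and LXR targets, 2 were higher and 1 lower, and 33.3% called of so few genes lies near the 24.4% over all genes. Nr1h3, the gene of the sterol receptor LXR-alpha, rose by 1.99 (SE 0.053) and Mylip, a ubiquitin ligase gene induced by LXR, by 1.02 (SE 0.071), whereas the exporter gene Abcg1 fell by 1.15 (SE 0.046). Abca1 and Nr1h2 had -0.28 (SE 0.066) and 0.36 (SE 0.043).

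Among stress programs, 9 of 14 targets of NRF2, the regulator of antioxidant genes, were called higher and 0 lower (median 0.70). This was 64.3% called against 24.4% over all genes. Slc7a11, the cystine importer, was at 2.77, 2.65, 2.51 and 2.14 in DMSO and 5.80, 5.77, 5.70 and 5.73 in T/5z. Its rise of 3.24 (SE 0.093, adjusted p 6.7e-07) was followed by Txnrd1 (2.02, SE 0.065), Sqstm1 (1.48, SE 0.061) and Srxn1 (1.14, SE 0.069). Prdx1 and Pgd had 0.24 and 0.39 and were not called. Endoplasmic reticulum and integrated stress genes gave 4 higher and 3 lower of 24, and 29.2% called lies near the 24.4% over all genes. Herpud1, a component of protein degradation at the endoplasmic reticulum, rose by 2.36 (SE 0.20) and Ppp1r15a, the stress phosphatase subunit GADD34, by 1.11 (SE 0.11), whereas Psat1, of serine synthesis, fell by 0.80 (SE 0.086). Phgdh, of the same pathway, rose by 0.79 (SE 0.080) from a DMSO mean of 1.61. Calr and Slc3a2 had 0.19 and 0.26. Heat shock and metallothionein genes were higher in 3 of 11 (27.3%, also near that share), Hspa1b (1.25), Mt2 (1.02) and Hspa1a (0.96). Hspa1a and Hspa1b are near-identical copies and uncertain.

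Of 18 glycolysis and HIF-1 genes, 4 were higher and 0 lower, 22.2% called against 24.4% over all genes. Slc2a1, the glucose transporter GLUT1, was at 4.44, 4.44, 4.58 and 4.33 and 6.39, 6.34, 6.18 and 6.37, without overlap (1.87, SE 0.076). Hif1a, Pfkl, a phosphofructokinase, and Slc16a3, a lactate exporter, rose by 1.27 (SE 0.11), 1.26 (SE 0.072) and 0.97 (SE 0.057). The abundant enzymes Pkm and Aldoa had -0.15 and 0.054. In 2 further housekeeping lists few genes were called. Ribosome biogenesis gave 1 of 28 (3.57%), Rrs1 (2.10, SE 0.091), with Npm1 at -0.36 and Fbl at -0.066. The nuclear-encoded respiratory chain gave 1 of 26 (3.85%), Cycs, which encodes cytochrome c (0.63, SE 0.084, and 0.56 without replicate 4, not called), with Cox4i1 at 0.019 and Atp5b at 0.19. Of 28 lysosomal genes 1 was higher and 5 lower (21.4% called), with a median of -0.31. Atp6v0d2, a proton pump subunit, fell by 1.15 (SE 0.072), Gla, alpha-galactosidase, by 1.04 (SE 0.058), Npc1, the lysosomal cholesterol transporter, by 0.95 (SE 0.048), and Tfeb, the transcription factor of lysosomal genes, by 0.95 (SE 0.10). The cathepsin genes Ctsd and Ctsb had -0.58 (SE 0.050) and -0.31 (SE 0.050).

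Complement and phagocytic receptors gave 2 higher and 6 lower of 20, 40% called against 24.4% over all genes. Fcgr3, an activating receptor for immunoglobulin G, was at 7.90, 7.86, 8.06 and 8.21 in DMSO and 6.65, 6.57, 6.87 and 6.65 in T/5z, and the inhibitory receptor gene Fcgr2b at 6.72, 6.57, 6.27 and 6.26 and 7.52, 7.55, 7.64 and 7.63. They moved apart, by -1.32 (SE 0.067) and 1.13 (SE 0.10). Cd93 fell by 1.37 (SE 0.099). C1qa and C1qb, which encode chains of the first complement component, had 0.18 (SE 0.052) and 0.090 (SE 0.054) and were not called.

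In a list of chemotactic, G-protein-coupled and purinergic receptors, 8 of 18 were higher and 5 lower, 72.2% called against 24.4% over all genes. Gpr84, a receptor for medium-chain fatty acids, rose by 4.48 (SE 0.16), and the formyl peptide receptor genes Fpr1 and Fpr2 by 3.81 (SE 0.16) and 3.78 (SE 0.097). C3ar1, a complement receptor gene, and P2rx4, which encodes an ATP-gated ion channel, had -0.39 and -0.41 and were not called. The 5 that fell, named for being 5, were Lpar6 (-2.38), P2rx7 (-1.81), also an ATP-gated ion channel gene, Ccr1 (-1.78), Gpr183 (-1.75) and Ptger2 (-1.31), a receptor for prostaglandin E2. Of the 8 RGS genes in a list of their own, which did not hold Rgs2, 2 were higher and 3 lower, 62.5% called against 24.4%. Rgs3 rose by 2.33 (SE 0.075), Rgs16 by 2.11 (SE 0.093) and Rgs14 fell by 1.41 (SE 0.092). Rgs1 did not pass (0.27, SE 0.18).

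Markers of other cell types moved with the treatment at low levels, and their counts are set against 24.4% called over all genes. Of 6 tested astrocyte markers 4 were higher, Aqp4 (0.51, 0.42, 0.82 and 0.79 in DMSO and 2.31, 2.42, 2.08 and 1.74 in T/5z), Slc1a3 (0.97), Gja1 (0.85) and Gfap (0.81). Aqp4, Slc1a3 and Gja1 were below the filter level of 1 in every DMSO library and passed through groups where they were higher. The filter thus fixes this count in part, and Slc1a2, S100b, Sox9 and Slc4a4 did not pass it. The summed FPKM of all 10 astrocyte markers was 7.17 to 9.26 in DMSO and 12.3 to 23 in T/5z, against 5920 to 6650 and 5970 to 6790 for the 11 microglial markers. All 4 tested fibroblast and mural markers were higher, by 0.63 for Col1a1 to 0.85 for Col3a1, with sums of 6.66 to 9.1 and 12.7 to 21.7 over 6 genes. Col1a1 lost its call without replicate 2 (0.47). Both sums were higher in all T/5z libraries than in any DMSO library and stayed far below the microglial sum. Oligodendrocyte lineage markers gave 1 higher (Olig1, 0.75) and 1 lower (Cspg4, -0.69, and -0.54 without replicate 4, not called) of 4, and Mrc1, a border macrophage marker, fell by 0.64. For endothelial markers 1 of 3 (33.3%) was lower, Pecam1 (-0.95), and the 1 tested neuronal marker and the 2 tested neutrophil markers were not called. Neutrophil genes differed between single libraries, with S100a9 at 3.59, 2.55, -0.44 and 0.00 in DMSO and 0.42, 2.67, 2.53 and 0.00 in T/5z. No lymphocyte marker was in the table. The part that other cells played in the rise of genes with low DMSO levels, such as Ptx3 and Il6, was not tested.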

How the data were processed

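RNA of the microglia was enriched for mRNA and sequenced. The authors used OmicSoft Array Studio to make 1 deposited table of log2 values (log2 of FPKM plus 1) with an annotation of exon length, coordinates and a mark of confounded genes that the sources used here do not define. All 24 microglial columns were matched to samples by name, and 0 columns were left without a sample. Averaged over the 6 treatments, no gene differed between replicates 1 to 3 and replicate 4 by more than 6.67e-05, and 187 to 624 values were below 0 in each of the 6 DMSO and T/5z libraries of replicates 1 to 3 and 0 in replicate 4, so replicates 1 to 3 had been shifted gene by gene. Whole reads could not be recovered (64.4% and 64% of low values of replicate 4 lay within 0.1 of a whole multiple), so no count test was run.

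From these values, a moderated linear model was fitted to the 8 libraries with the replicate number as a block in limma 3.58.1 (R 4.3.3, trended prior variance), as in the paired design of the study. p-values were adjusted by Benjamini and Hochberg over all 10524 genes, and calls needed an adjusted p under 0.05 and a fold change over 1.5. The same fit compared T/5z with T/S/Z and with T/5z/N. Deviations of same-numbered libraries from their group means had correlations of -0.36, -0.26, -0.14 and -0.39, which the shift produces, so the pairing rests on the study's design and was not shown by the data. The study's methods describe replicates as biological, from separate animals or litters. The labels tie no library to a litter, and brains were pooled within a preparation. No 2 libraries held identical values. The script was tested on simulated data. Genes named in the text were the 12 largest rises and 12 largest falls among called, unmarked genes that moved alike in 4 of 4 pairs and had a mean log2 level of 3 or more in the higher group, up to 4 called and 2 uncalled members of each list, and 22 genes of the pathway, with other names given where counts were small. Some genes that this rule names are not reported here. Members and lists were chosen with earlier results of these data known. Of the genes named, 84 carry the confounded mark. Alternatives were the model without the block, each replicate left out, other filters, 5 in place of 1 added before the log, other scalings, per-gene variance, all 24 libraries in 1 fit, other thresholds and removal of confounded genes.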

Additional observations from a re-analysis of the deposited data

Results flagged for a closer look

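In the groups of 4 libraries, the level of 1 library lay far from the other 3 for 30 of 474 combinations of a named gene and a group. The measure was the gap of the highest or lowest library to its nearest neighbour divided by the range of the group, and far means above Dixon's 95% critical value for 4 values. Chance flags about 1 in 20 groups by the construction of that value, which assumes independent, normally distributed values. The adjusted replicates are not independent. In DMSO replicate 1 the log2 value was 5.25 for Cd93, 5.46 for Fbl and 3.48 for Mmp12. In DMSO replicate 2 the log2 value was 3.68 for Osm. In DMSO replicate 3 the log2 value was 6.07 for Ccng1. In DMSO replicate 4 the log2 value was 7.00 for Abca1, 6.96 for Alox5ap, 11.26 for C1qb, 8.62 for Clec4d, 4.46 for Cyp51, 6.67 for Gla, 11.69 for H2-D1, 3.27 for Ifit1, 8.56 for Igf1, 7.95 for Itgb2 and 2.44 for Tlr6. In T/5z replicate 1 the log2 value was 3.83 for Tnip2. In T/5z replicate 2 the log2 value was 2.55 for Phgdh. In T/5z replicate 3 the log2 value was 8.64 for Atp5b, 1.34 for Atp6v0d2, 7.62 for Bax, 8.44 for Gpr84, 9.16 for Ifi205 and 7.38 for Sat1. In T/5z replicate 4 the log2 value was 6.47 for Ccl22, 6.25 for Cflar, 10.01 for Csf1r, 0.61 for Lpar6, 4.26 for Pla2g4a and 9.77 for Tnfaip2. Replicate 4, whose values had not been shifted, held 17 of these values, and the part of the adjustment was not tested.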

How the results depend on the processing

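Without the replicate block, 2566 genes were called for T/5z against DMSO in place of 2563 in the paired fit, and no call on a gene named here changed. The deposited shift had already made the replicate means of each gene equal, so this setting could change little. Leaving out 1 replicate gave 2514 to 2634 calls for T/5z against DMSO, 983 to 1104 against T/S/Z and 714 to 848 against T/5z/N. The choices that follow lowered the counts, by testing fewer genes, by a stricter threshold or, with 5 added, by shrinking differences of low values. With 5 in place of 1 added before the log, calls were 1484 (769 higher, 715 lower) for T/5z against DMSO, 611 (239 higher, 372 lower) for T/5z against T/S/Z, 314 (234 higher, 80 lower) for T/5z against T/5z/N. With genes below a mean log2 level of 3 removed, they were 1459 (763 higher, 696 lower) for T/5z against DMSO, 658 (263 higher, 395 lower) for T/5z against T/S/Z, 382 (252 higher, 130 lower) for T/5z against T/5z/N. Without confounded genes, they were 1301 (597 higher, 704 lower) for T/5z against DMSO, 526 (241 higher, 285 lower) for T/5z against T/S/Z, 409 (265 higher, 144 lower) for T/5z against T/5z/N, and 201 members of the gene lists were called in place of 332. With a fold minimum of 2, they were 1077 (546 higher, 531 lower) for T/5z against DMSO, 399 (156 higher, 243 lower) for T/5z against T/S/Z, 182 (139 higher, 43 lower) for T/5z against T/5z/N, and 199 list members. The share of higher calls for T/5z against T/5z/N was 63.1%, and it was 74.5% with 5 added and 76.4% with a fold minimum of 2. Centring libraries on their median moved the higher share for T/5z against DMSO from 45.5% to 53.6%, and the median of all genes from -0.058 to 0.011.

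Of 260 differences of named genes, 0 turned to the opposite direction with a call. Calls were lost for 47 with a fold minimum of 2, 32 with 5 added, 16 with ordinary per-gene variance, 6 with quantile normalization, 3 with centring and 2 to 5 without 1 replicate. Depth limits the genes near the filter, where 1 adjusted replicate can hold values below 0, and no interval for counting error is given. The confounded mark covers 5257 of the 10524 genes tested.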

Other observations

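Of 14 genes of matrix proteases and the plasminogen system, 11 were called higher and 1 lower, with a median of 0.71. The share called was 85.7%, against 24.4% over all genes. Mmp14, a membrane-bound collagenase, was at 6.04, 5.92, 5.85 and 5.53 in DMSO and 8.00, 8.09, 7.92 and 8.24 in T/5z. Its groups did not overlap (2.23, SE 0.12), and Mmp13 rose by 1.91 (SE 0.088), Adamts4, which cleaves aggrecan, by 1.59 (SE 0.12) and Mmp10 by 1.14 (SE 0.17). Mmp12 and Mmp9 had -0.047 (SE 0.13) and 0.37 (SE 0.12) and were not called. The 1 that fell was Adam8 (-0.93), named for being 1. Summed fibroblast and mural markers were also higher in every T/5z library, and their part in the protease genes was not tested.

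Among 9 p53 targets, 4 were higher and 1 lower, 55.6% called against 24.4% over all genes. The death receptor gene Fas rose by 2.87 (SE 0.13), Cdkn1a, the cell cycle inhibitor p21, by 2.40 (SE 0.16) and Gdf15 by 1.78 (SE 0.062), whereas Trp53inp1 fell by 1.13 (SE 0.087). Mdm2 and Ccng1 had 0.58 and 0.35 and were not called. Of 21 cell cycle and replication genes 1 was higher and 5 lower, and 28.6% called lies near the 24.4% over all genes. The replicative helicase genes Mcm6 and Mcm7 fell by 1.22 (SE 0.097) and 1.02 (SE 0.14), and the proliferation marker Mki67 rose by 1.55 (SE 0.16). Of 232 zinc finger genes with a Zfp symbol, 22 were lower and 5 higher, 11.6% called and so below the 24.4% over all genes. Zfp395 fell by 2.51 (SE 0.13) and Zfp263 rose by 1.24 (SE 0.072). Of the 9 mitochondrially encoded genes limma called 0 against DMSO, with 0 at an unadjusted p under 0.05. Their median difference was 0.40, but the groups overlapped for every gene and the pairs went both ways, from -0.71 to 1.42 for mt-Nd1 (adjusted p 0.184) and from -0.90 to 1.07 for mt-Co1 (adjusted p 0.51). Against T/S/Z 7 of the 9 were lower, where 9.83% of all genes were called in either direction.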
